A study of Mus musculus with 2 samples.

Results

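The 4 loci described here hold Dnmt1, Dnmt3a, Dnmt3b and Dnmt3l, mouse genes of the DNA methyltransferase family. Each was taken as a fixed interval of the mm9 genome that covers the gene and a flank on both sides. The intervals were chr9:20702001-20775000 for Dnmt1, chr12:3796001-3925000 for Dnmt3a, chr2:153465001-153524000 for Dnmt3b and chr10:77495001-77537000 for Dnmt3l. They were cut into 303 bins of 1 kb, out of 2581628 bins over all chromosomes, and held 4214 of the 13025343 listed cytosines and 66466 of the 176006227 reads. Reads here and below are deposited counts per cytosine and their sums. The data are a map of 5-hydroxymethylcytosine (5hmC) in E14, a widely used line of mouse embryonic stem cells, at passage 12, with no treatment or second condition in the labels. 5hmC was glucosylated and cut by AbaSI, an endonuclease that recognises the glucosylated base, and the cut ends were sequenced. The 2 replicate libraries reach these values as 1 pooled count per cytosine, so no value below has a replicate error and no test between samples was possible, and the labels name no separate cultures. A listed cytosine had at least 2 reads, and a cytosine without a listing is not a measured 0.

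DNA methyltransferases place the methyl group that the TET enzymes later oxidise to 5hmC. Dnmt1 copies methylation onto the new strand after replication, Dnmt3a and Dnmt3b set new methylation, and Dnmt3l has no catalytic activity of its own and stimulates the Dnmt3 enzymes in germ cells and early embryos. All 4 genes are known to be active in mouse embryonic stem cells. Expression was not measured here.

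Each locus carried more listed 5hmC cytosines than an average stretch of the autosomes, while the CG-rich starts of Dnmt1, Dnmt3a and Dnmt3b held none. The start regions are shown first, because the contrast between them is visible in their letters. The table of RefSeq promoter windows (GRCm38.p6, 300 bases each, from 250 before to 50 after a transcription start) held 10 windows for the 4 genes, 3 each for Dnmt1, Dnmt3a and Dnmt3l and 1 for Dnmt3b. The windows were located in mm9 by their letters alone. This step was added after the data were seen. All windows within 700 kb of a gene were laid over the listed cytosines at the spacing of the table, and each position in the interval was tried. The best position matched 112 of 112 listed cytosines in base, strand and neighbouring base for Dnmt1, where the next best matched 14 of 92. For Dnmt3a it matched 36 of 37 (next best 12 of 34), for Dnmt3b 91 of 91 (8 of 36) and for Dnmt3l 143 of 143 (15 of 98). A window without a listed cytosine was placed only through its spacing to windows around it, so its exact position rests on that spacing being the same in both builds. The reach of 700 kb was reached by widening. With windows within 60 or 150 kb, Dnmt1, Dnmt3a and Dnmt3l were placed at the same position, but Dnmt3b was not: at 60 kb 2 positions tied, and at 150 kb another position led with 9 of 10. From 400 kb on, where 28 of 28 matched, the position of Dnmt3b was the reported one.

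The 250 bases before 6 of the 10 starts follow, 5′ to 3′ on the strand of the gene, as RefSeq gives them for GRCm38.p6. They were chosen by their listed cytosines, to show starts without any beside starts where CG after CG was listed. Of the starts not shown, the Dnmt1 start 356 bp downstream and the second Dnmt3a start had 26 and 40 CG, none of them listed. The most upstream Dnmt1 start had both of its 2 CG listed, and the middle Dnmt3l start had 4 CG, none listed. The full set thus does not split by gene. Which of the starts is in use in these cells was not measured, so a start shown here is not thereby an active one. Capitals mark a CG with a listed 5hmC cytosine on either strand, and letters in lower case had none. In the last sequence the first base is in capitals because it is the minus-strand cytosine of a CG that crosses the edge of the window. Positions are those found in mm9.

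Dnmt1, minus strand, chr9:20757424-20757673: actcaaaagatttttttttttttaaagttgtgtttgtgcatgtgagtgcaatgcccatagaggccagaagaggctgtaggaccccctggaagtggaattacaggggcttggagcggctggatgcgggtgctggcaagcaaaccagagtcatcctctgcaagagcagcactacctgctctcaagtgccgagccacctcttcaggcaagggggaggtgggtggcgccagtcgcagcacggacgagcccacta

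Dnmt3a first start, plus strand, chr12:3806730-3806979: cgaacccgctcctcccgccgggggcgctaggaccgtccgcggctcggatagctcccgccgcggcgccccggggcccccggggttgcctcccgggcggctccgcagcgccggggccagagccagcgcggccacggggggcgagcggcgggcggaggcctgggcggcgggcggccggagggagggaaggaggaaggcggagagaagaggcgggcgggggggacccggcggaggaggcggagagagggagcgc

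Dnmt3a internal start, plus strand, chr12:3891494-3891743: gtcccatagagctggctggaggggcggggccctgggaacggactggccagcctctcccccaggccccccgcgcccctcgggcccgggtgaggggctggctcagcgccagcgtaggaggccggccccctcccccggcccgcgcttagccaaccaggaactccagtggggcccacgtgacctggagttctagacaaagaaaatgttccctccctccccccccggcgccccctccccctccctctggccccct

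Dnmt3b, plus strand, chr2:153474935-153475184: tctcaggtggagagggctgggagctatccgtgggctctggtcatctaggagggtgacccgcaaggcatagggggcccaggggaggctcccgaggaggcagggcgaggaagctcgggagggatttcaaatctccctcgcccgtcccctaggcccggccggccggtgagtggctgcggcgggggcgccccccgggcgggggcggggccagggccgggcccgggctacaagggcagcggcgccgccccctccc

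Dnmt3l first start, plus strand, chr10:77504782-77505031: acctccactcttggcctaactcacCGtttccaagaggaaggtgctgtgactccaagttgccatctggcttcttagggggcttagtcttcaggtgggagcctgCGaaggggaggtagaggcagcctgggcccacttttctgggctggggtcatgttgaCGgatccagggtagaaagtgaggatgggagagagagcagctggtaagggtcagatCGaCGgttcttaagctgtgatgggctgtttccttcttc

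Dnmt3l last start, plus strand, chr10:77517830-77518079: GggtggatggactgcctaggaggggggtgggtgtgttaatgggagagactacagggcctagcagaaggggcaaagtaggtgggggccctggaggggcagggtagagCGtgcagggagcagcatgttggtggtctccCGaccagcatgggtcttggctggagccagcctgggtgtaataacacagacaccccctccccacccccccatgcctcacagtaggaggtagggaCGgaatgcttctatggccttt

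The Dnmt3a first start has 38 CG in these 250 bases, the Dnmt3b start 21, the Dnmt3a internal start 15 and the Dnmt1 start shown here 7, and no CG of them was listed. The Dnmt3l first start has 5 CG, and all 5 were listed on at least 1 strand, with 9 listed cytosines and 202 reads. Of these, the CG farthest from the start, 226 bases before it, had 52 reads on the strand of the gene and 34 on the other. The CG 93 bases before the start had 30 and 24 reads. The CG 148 bases before it was listed on the strand of the gene only, with 8 reads. These 250 bases also lie downstream of the start of another gene, Aire, at 77506355 on the minus strand. At the Dnmt3l last start all 3 CG of the window were listed on both strands. The highest of them, 114 bases before the start, had 46 and 7 reads, and the nearest, 21 bases before it, had 24 and 27.

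The starts were then grouped by their CG content. Of the 10 windows of 300 bases, 6 had at least 10 CG, a limit set after the values were seen, and these 6 held 12 to 47 CG each and 0 listed cytosines. They belonged to Dnmt1 (33 and 12 CG), Dnmt3a (47, 46 and 18 CG) and Dnmt3b (30 CG), and the Dnmt3a windows with 47 and 46 CG overlap. Among windows of other genes around the loci with at least 10 CG, 68 of 104 (65.4%, exact 95% interval 55.4 to 74.4) held no listed cytosine. The interval of the 6 of 6 runs from 54.1% to 100%, so the members are not shown to differ from their neighbours in this. Both intervals treat the windows as independent and are too narrow. The 2 Dnmt1 starts lie 356 bp apart, and several windows of other genes overlap as well. The 4 windows with fewer CG were those of Dnmt3l (6, 4 and 3 CG) and the most upstream Dnmt1 start (2 CG). They held 10, 0, 7 and 3 listed cytosines with 213, 0, 135 and 50 reads. Of the other genes' windows with fewer than 10 CG, 19 of 69 (27.5%) held none.

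Listed sites were few beyond the CG-rich windows too. Within 500 bp on either side of the start, the 6 CG-rich starts had 0 to 3 listed cytosines. The Dnmt1 starts had 0 and 1, the first Dnmt3a starts 1 and 0, the internal Dnmt3a start 2 with 16 reads, and the Dnmt3b start 3 with 31 reads. The same stretch held 22 listed cytosines with 414 reads at the first Dnmt3l start and 24 with 431 reads at the last. It held 11 with 154 reads at the most upstream Dnmt1 start and 0 at the middle Dnmt3l start, which has 4 CG. The mean over the autosomes was 5.32 listed cytosines per 1 kb bin, but the median bin held 3 and 27.3% held none, so the Dnmt3b start lay at that median and counts of 0 to 2 were common. In the first kb after the start, the Dnmt1 starts with 33 and 12 CG, both first Dnmt3a starts and the Dnmt3b start had 0 listed cytosines, while the internal Dnmt3a start had 2 in its first 500 bp and 6 in the next. Farther in, from 2 to 5 kb after the start, listed cytosines were frequent again, with 41 and 42 after the Dnmt1 starts, 48 after each first Dnmt3a start, 68 after the internal Dnmt3a start and 43 after the Dnmt3b start.

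**Figure D1:**
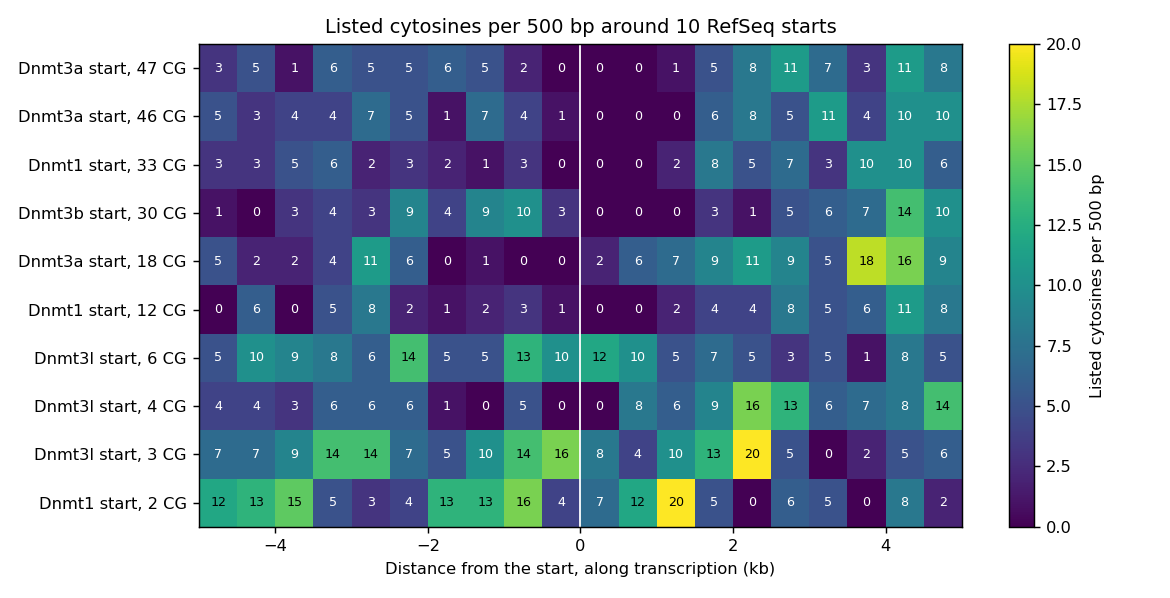
Listed 5hmC cytosines in steps of 500 bp (number and colour in each cell) around the 10 RefSeq starts, against the distance from the start along transcription in kb, ordered by the number of CG in the 300-base window. The upper 6 rows, with 12 or more CG, hold 0 to 3 listed cytosines within 500 bp on either side of the start, and the rows of the first and last Dnmt3l starts hold 22 and 24.

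At Dnmt1, Dnmt3a and Dnmt3l the longest stretch without a listed cytosine held a start of the gene, and at Dnmt3b the second longest did. At Dnmt1 the longest spanned 1882 bp, between listed sites at 20755999 and 20757881, and held both CG-rich Dnmt1 starts. Its next longest, of 1016 bp, held the start of Eif3g, a translation initiation factor gene at the edge of the interval. At Dnmt3a the longest spanned 2166 bp and held both first starts, and the next, of 1839 bp, held the internal start 84.764 kb downstream. An internal promoter of Dnmt3a is known to give a shorter protein, the main form in embryonic stem cells. At Dnmt3b the stretch around the start spanned 1889 bp and was the second longest. The longest there, 2245 bp between 153516703 and 153518948, held no RefSeq start of the table. At Dnmt3l the longest spanned 1193 bp and held the middle start. Of all distances between neighbouring listed sites on the autosomes, 1.47% were at least as long as the Dnmt1 stretch, 1.2% as the longer Dnmt3a stretch, 1.46% as the stretch at the Dnmt3b start and 2.73% as that of Dnmt3l. Those distances include the ones between the strands of a CG. Each stretch was picked as among the longest of a locus with 556 to 1674 listed cytosines, so these shares do not mark it as rare.

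In 1 kb bins the loci were filled almost throughout. A bin without a listed cytosine occurred 5 times in the 303 bins (1.65%, exact 95% interval 0.538 to 3.81), against 27.3% of the 2415133 autosomal bins. The only such bin of Dnmt1, chr9:20756001-20757000, adjoins the bin of its CG-rich starts, which held 1 listed cytosine with 3 reads. The 2 empty bins of Dnmt3a, chr12:3807001-3808000 and chr12:3891001-3892000, contain the second and the internal start. Dnmt3b had 2 empty bins among 59, chr2:153475001-153476000 with its start and chr2:153517001-153518000 near the downstream end of the interval. Dnmt3l had none among 42 bins, for which the upper limit of the interval is 8.41%. No empty bin adjoined another, so the longest run was 1 bin at Dnmt1, Dnmt3a and Dnmt3b. The lowest bins of Dnmt3l were chr10:77512001-77513000, which contains the middle start, and chr10:77521001-77522000, each with 1 listed cytosine and 3 reads.

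**Figure D2:**
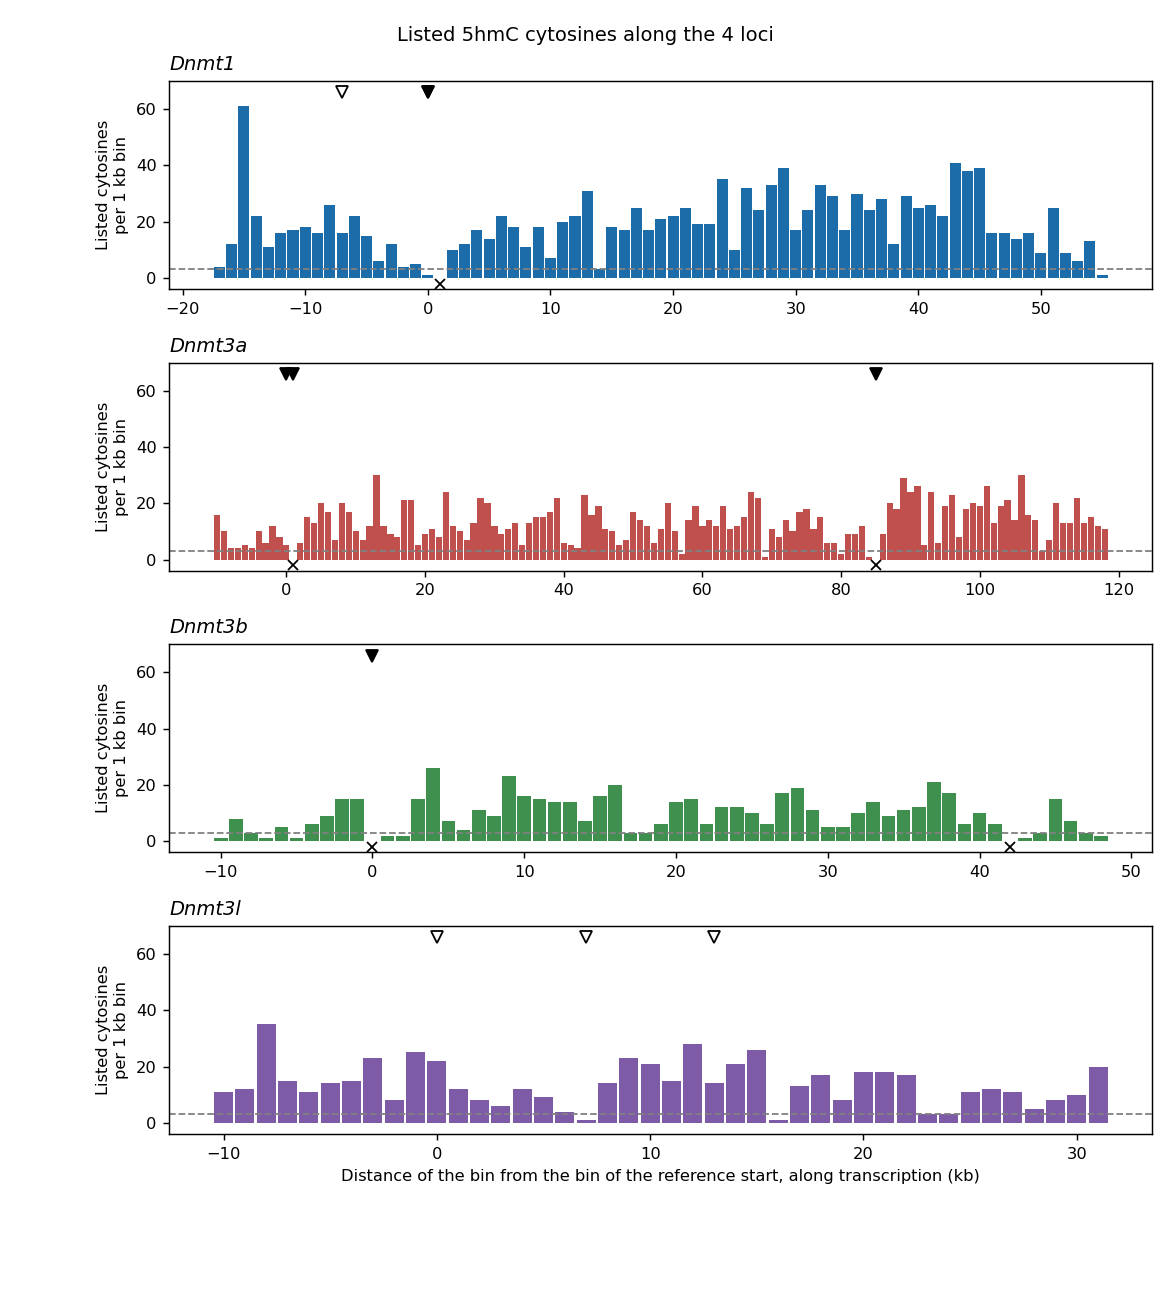
Number of listed 5hmC cytosines in each 1 kb bin of the 4 loci, against the distance in kb from the bin of the reference start, along transcription. Filled triangles mark bins with a RefSeq start of at least 10 CG, open triangles those with fewer, crosses the 5 empty bins and the dashed line the autosomal median of 3. Of the 5 crosses, 3 stand at a filled triangle and 1 next to it, and the Dnmt1 bin with 61 listed cytosines stands above all others.

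Dnmt1, the maintenance enzyme, had the densest locus. Its 73 bins held 1404 listed cytosines with 23937 reads. The mean was 19.2 listed cytosines per bin (exact Poisson 95% interval 18.2 to 20.3) and 328 reads per bin. The autosomal means were 5.32 and 72.2, so the locus stood at 3.61 times the autosomes in sites and 4.54 times in reads. Its median bin held 18 listed cytosines (quartiles 12 and 25) and 317 reads, where the autosomal median bin held 3 and 18. In 31 bins (42.5%) there were 20 or more listed cytosines, against 5.26% of autosomal bins. The longest run of such bins covered 7 kb, chr9:20712001-20719000, with 220 listed cytosines and 4342 reads. Of the 1659 windows of 73 kb laid end to end over chromosome 9, 5 held as many listed cytosines and 5 as many reads, and the median window held 362 and 3902.

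The fullest bin of all 303 was chr9:20772001-20773000, upstream of the Dnmt1 starts, with 61 listed cytosines and 1145 reads. Only 0.0135% of autosomal bins held as many listed cytosines. The bin also lies downstream of the minus-strand start of another gene, S1pr2, at 20781237 outside the interval. Gene ends were not used, so the bin was not assigned to a gene. The next bins of Dnmt1 by sites were chr9:20714001-20715000 with 41 and chr9:20712001-20713000 with 39, both downstream of the starts. By reads the second was chr9:20722001-20723000 with 946 reads on 30 sites. Along transcription, the 17 bins before the bin of the CG-rich starts had a mean of 16.6 listed cytosines and the 55 bins after it 20.4.

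Dnmt3a, a de novo enzyme, had the longest interval and an intermediate density. Its 129 bins held 1674 listed cytosines with 25706 reads, a mean of 13.0 per bin (12.4 to 13.6) and 199 reads per bin. That was 2.44 times the autosomes in sites and 2.76 times in reads. The median bin held 12 listed cytosines (quartiles 8 and 18) and 171 reads. Bins with 20 or more listed cytosines numbered 25 (19.4%), spread over the locus in 20 separate runs. The longest of them was 3 kb, chr12:3895001-3898000, downstream of the internal start. The fullest bins were chr12:3819001-3820000 and chr12:3912001-3913000 with 30 listed cytosines each and chr12:3895001-3896000 with 29, the last also having the most reads (533). By reads it was followed by chr12:3881001-3882000 with 506 and chr12:3874001-3875000 with 501. Of the 917 windows of 129 kb on chromosome 12, 46 held as many listed cytosines and 35 as many reads. The 10 bins before the bin of the first start had a mean of 7.9 listed cytosines and the 118 bins after it 13.5.

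Dnmt3b, the other de novo enzyme, had the sparsest locus of the 4. Its 59 bins held 556 listed cytosines with 7968 reads, a mean of 9.42 per bin (8.66 to 10.2) and 135 reads per bin. That was 1.77 times the autosomes in sites and 1.87 times in reads. The median bin held 9 listed cytosines (quartiles 4.5 and 14.5) and 111 reads. Bins with 20 or more listed cytosines numbered 4 (6.78%, interval 1.88 to 16.5), with the autosomal 5.26% inside the interval. They were chr2:153479001-153480000 with 26, chr2:153484001-153485000 with 23, chr2:153512001-153513000 with 21 and chr2:153491001-153492000 with 20. The bins with the most reads were chr2:153487001-153488000 with 477 reads on 14 sites, the first of these with 421, and chr2:153486001-153487000 with 332. Of the 3031 windows of 59 kb on chromosome 2, 603 (19.9%) held as many listed cytosines and 517 as many reads. The 10 bins before the start bin had a mean of 6.4 listed cytosines and the 48 bins after it 10.2 (10.25). RefSeq lists a Dnmt3b-related pseudogene, Dnmt3b-ps1, downstream of the gene, and no source used here says how reads that fit both copies were assigned.

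Dnmt3l, the cofactor gene, had the shortest interval and a density like that of Dnmt3a. Its 42 bins held 580 listed cytosines with 8855 reads, a mean of 13.8 per bin (12.7 to 14.98) and 211 reads per bin. That was 2.59 times the autosomes in sites and 2.92 times in reads, and the interval of the mean overlaps that of Dnmt3a. The median bin held 12.5 listed cytosines (quartiles 8.25 and 18) and 173.5 reads. Bins with 20 or more listed cytosines numbered 10 (23.8%). The fullest were chr10:77497001-77498000 with 35, chr10:77517001-77518000 with 28 and chr10:77520001-77521000 with 26. The most reads were in chr10:77536001-77537000, the last bin of the interval, with 553, then in chr10:77504001-77505000 with 552 and the first of the bins named before with 491. The last bin lies downstream of the plus-strand start of Icosl at 77532113, and gene ends were not used to assign bins to a gene. Unlike the bins of the CG-rich starts, the bin of the first Dnmt3l start, chr10:77505001-77506000, was itself full, with 22 listed cytosines and 293 reads, and the bin of the last start held 14 with 298 reads. The bin of the middle start did not share this, with 1 listed cytosine and 3 reads. The 10 bins before the bin of the first start had a mean of 16.9 and the 31 bins after it 12.5. Those 10 bins, with the fullest bin among them, also lie downstream of the minus-strand start of Aire at 77506355. So do the first Dnmt3l start and its full bin, and their listed cytosines were not assigned to a gene. Of the 3025 windows of 42 kb on chromosome 10, 201 held as many listed cytosines and 185 as many reads.

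**Figure D3:**
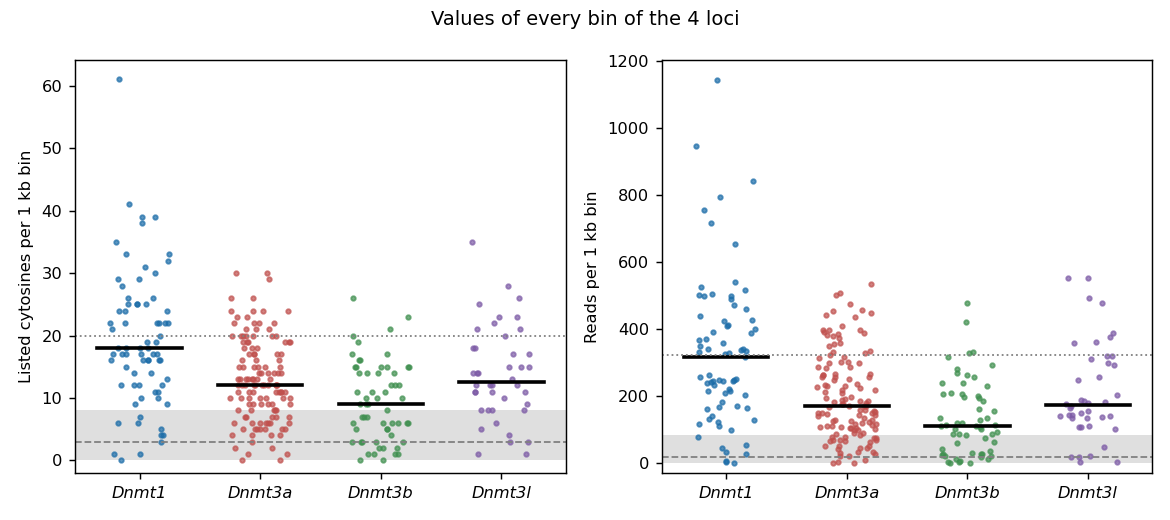
Every 1 kb bin of the 4 loci as a point, with listed 5hmC cytosines per bin on the left and reads per bin on the right, and the median of each locus as a black bar. The grey band gives the autosomal quartiles, the dashed line the autosomal median and the dotted line the autosomal 95th percentile (20 sites, 321 reads). The medians of 18, 12, 9 and 12.5 listed cytosines all lie above the band, and all 4 loci also have bins inside it.

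Most bins of the loci lay above the middle of the autosomal range. Of the autosomal bins, 43.4% held more than the median of 3 listed cytosines. At Dnmt1 69 of 73 bins did so, at Dnmt3a 122 of 129, at Dnmt3b 45 of 59 and at Dnmt3l 38 of 42. Against the own chromosome Dnmt1 again stood highest and Dnmt3b lowest, with 3.37 times the mean sites per bin at Dnmt1, 2.85 at Dnmt3a, 2.53 at Dnmt3l and 1.75 at Dnmt3b. The sequence of mm9 was not used here, so these are counts per kb and not per CG, and the number of CG in each bin can differ from the autosomal average.

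Reads per listed cytosine stood closer to the autosomes than the number of listed cytosines did. The median was 13 reads per site at Dnmt1 (quartiles 7 and 21), 12 at Dnmt3a (7 and 19), 12 at Dnmt3l (7 and 20) and 10 at Dnmt3b (6 and 18), against 9 (6 and 16) on the autosomes. These quartile ranges overlap widely. Among the sites of the class coded 2CG the median was 28 reads at Dnmt1, 22 at Dnmt3l, 16.5 at Dnmt3a and 15 at Dnmt3b, against 16 on the autosomes. Dnmt1 had 119 such sites and Dnmt3l 32.

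The strands of a CG were compared next, since a CG carries a cytosine on both strands. A dyad here is a CG with at least 1 listed cytosine. Of the 889 dyads of Dnmt1, 436 were listed on both strands, or 49.04% (exact 95% interval 45.7 to 52.4). At Dnmt3a the share was 49.8% (527 of 1058, 46.8 to 52.9), at Dnmt3l 50.9% (190 of 373, 45.7 to 56.1) and at Dnmt3b 43.9% (161 of 367, 38.7 to 49.1). The autosomal share was 37.4%, and the shares of the own chromosomes ran from 35.2% on chromosome 12 to 36.6% on chromosome 2. All 4 intervals lay above the autosomal share, and all 4 overlapped each other. For Dnmt3b this was lost with a higher minimum: with at least 5 reads per site its share was 39.4% (34.1 to 44.9) against 34.6% on the autosomes, and with at least 10 reads 29.9% (24.1 to 36.2) against 27.0%. It was also lost without the classes 2CG and 2CH, at 39.3% (34.03 to 44.7) against 34.6%. The intervals of Dnmt1, Dnmt3a and Dnmt3l lay above the autosomal share in these 3 alternatives. These intervals cover counting error only. The median dyad had 21 reads at Dnmt1, 18 at Dnmt3a, 16 at Dnmt3b and 20 at Dnmt3l, against 13 on the autosomes. The part of read number in the both-strand share was not tested.

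**Figure D4:**
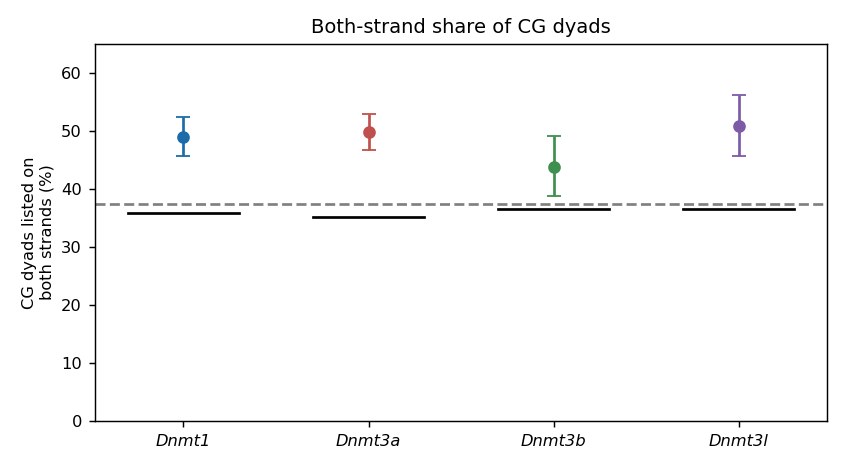
Share of CG dyads listed on both strands at each locus, in percent, with its exact 95% interval (counting error only). The dashed line is the autosomal share of 37.4%, the black bars are the shares of the own chromosomes, and the 4 points lie between 43.9% and 50.9%.

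Dyads listed on 1 strand were close to evenly divided between the strands. They numbered 223 on the plus and 230 on the minus strand at Dnmt1, 258 and 273 at Dnmt3a, 100 and 106 at Dnmt3b and 84 and 99 at Dnmt3l. The plus strand held 48.6% to 49.5% of the listed cytosines of each locus, and each of the 4 exact intervals included the autosomal 50.01%. Where both strands were listed, their reads differed more than 3-fold in 28.2% of dyads at Dnmt1 (24.0 to 32.7), 21.6% at Dnmt3a, 25.5% at Dnmt3b and 22.1% at Dnmt3l, against 22.3% on the autosomes. Only the interval of Dnmt1 lay above that share. Along Dnmt1 the both-strand share in steps of 5 kb ran from 37.8% to 58.0%, with 15 to 105 dyads a step, and the bins before and after the bin of its CG-rich starts had 49.2% and 49.01%.

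Most listed cytosines of the loci were CG, as on the autosomes. CG made up 94.4% of them at Dnmt1, 94.7% at Dnmt3a, 94.96% at Dnmt3b and 97.1% at Dnmt3l, against 94.01% on the autosomes. Cytosines before A, T or C, together called CH, numbered 79, 89, 28 and 17. The CH share of Dnmt3l, 2.93% (1.72 to 4.65), lay below the autosomal 5.99% and included the 4.21% of its own chromosome. At the other loci the intervals included the autosomal share. CH cytosines had medians of 4 to 7 reads and CG cytosines 11 to 13. The class codes, which no source used here explains, were compared by the same intervals. At Dnmt1 the intervals of all 5 codes included the autosomal shares. At Dnmt3b the code 2CG was above the autosomal 7.63%, with 10.8% of sites (8.34 to 13.7). At Dnmt3l the code CGCH was above the autosomal 51.5%, with 56.0% (51.9 to 60.1). The code 2CH at Dnmt3l, with 12 sites or 2.07% (1.07 to 3.59), was below the autosomal 3.71%. The code 1CH was below the autosomal 2.29% at Dnmt3a, with 22 sites or 1.31% (0.825 to 1.98), and at Dnmt3l, with 5 sites or 0.862% (0.28 to 2.0). The intervals of the other codes at these 3 loci included the autosomal shares. Against the own chromosome, the Dnmt3l intervals included the shares of chromosome 10 for CGCH (51.92%, lower limit 51.89), 2CH (2.63%) and 1CH (1.58%). For 2CG, however, the Dnmt3l share of 5.52% (3.80 to 7.70) lay below the 8.24% of chromosome 10. The intervals of Dnmt3b for 2CG and of Dnmt3a for 1CH still left out the 7.65% of chromosome 2 and the 2.21% of chromosome 12. No correction was made for comparing 5 codes at 4 loci.

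The intervals also held the starts of neighbouring genes, so part of their listed cytosines may belong to these. The window of Eif3g (22 CG), in the second kb of the Dnmt1 interval, held 0 listed cytosines. Inside Dnmt3a, the windows of its antisense RNA gene Dnmt3aos (2 CG) and of Gm31623 (5 CG), a long noncoding RNA gene, held 4 listed cytosines with 67 reads and 6 with 125 reads. Aire, an autoimmune regulator gene that starts 1323 bp inside Dnmt3l on the other strand, had a window of 16 CG with 6 listed cytosines and 61 reads. The window of Icosl (26 CG), the gene of an immune costimulatory ligand downstream of Dnmt3l, held 0. Thus among the 3 CG-rich windows of other genes inside the intervals, that of Aire held listed cytosines and those of Eif3g and Icosl did not.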

How the data were processed

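Genomic DNA of E14 cells was profiled in 2 libraries of 1 group. Per the labels' protocols, 100 ng of glucosylated DNA was cut with AbaSI, and libraries were amplified for 16 PCR cycles. Per the submitters' processing notes, the authors used CASAVA 1.8.2 and Bowtie with build mm9. The deposited values are raw read counts, whole numbers, in 1 pooled column for both libraries. Read filters, the treatment of PCR copies, the rule assigning reads to cytosines and how the libraries were joined are not stated there.

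Positions were converted to 1-based coordinates. A site belonged to a locus when its position lay in the interval, and bins were counted from the start of the interval. Bins of the 19 autosomes covered the span between the outermost listed sites. A dyad joined a plus-strand CG cytosine with the minus-strand one a base to its right. Shares have exact Clopper-Pearson and counts exact Poisson intervals at 95%, which express counting error alone. They treat listed cytosines and dyads as independent. Listed cytosines often came in strand pairs and were unevenly spread over the bins, so the intervals can be too narrow. Amplified reads carry no molecular identifier. The counts summed to 176006227 over all listed cytosines, with a median of 9 per site. Whether 1 read could count at more than 1 cytosine is not stated, so this sum is not the number of sequenced reads.

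RefSeq windows (GRCm38.p6) were placed by trying every position in the interval, a mismatch counting -2 and a match 1, with the spacing of the table kept. No coordinates were converted by a chain file, and no mm9 sequence or annotation was used, so bins were not split into exons and introns. This step, its reach (60, 150, 400, 500 and 700 kb were tried), the limit of 10 CG and the comparison with other genes' windows were chosen after seeing the data. The list of other methylation genes was not counted for lack of mm9 annotation. Named were, per locus, the 3 bins with the most sites and with the most reads, the longest empty runs, and the sites and dyads with the most reads. The members and lists were chosen with earlier results of these data known. Functions were tested on simulated sites and sequences. Analyses used Python 3.11.15, numpy 2.4.6, pandas 2.3.3, scipy 1.17.1 and matplotlib 3.10.9.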

Additional observations from a re-analysis of the deposited data

How the results depend on the processing

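Of 72 alternative values for 16 results, 30 stayed within the counting interval of the reported value and 42 moved, the values for reads being bound by narrow intervals. Dnmt1 stayed highest and Dnmt3b lowest in sites and reads per bin under each alternative run. With at least 5 reads per site, sites per bin were 17.4 at Dnmt1, 11.6 at Dnmt3a, 8.05 at Dnmt3b and 12.2 at Dnmt3l, and with at least 10 reads 12.5, 7.93, 5.24 and 8.69. Reads per bin were then 322, 195, 131 and 206 (205.6), and 288, 169, 111 and 182. The autosomal mean fell as well, so that with 10 reads the loci stood at 4.71, 2.99, 1.98 and 3.28 times its sites. Both-strand shares with 5 reads were 45.4% at Dnmt1, 46.0% at Dnmt3a, 39.4% at Dnmt3b and 49.9% at Dnmt3l, against 34.6% on the autosomes, and with 10 reads 30.7%, 34.6%, 29.9% and 33.2%, against 27.0% on the autosomes. Empty bins with 10 reads rose to 11.9% at Dnmt3b and 9.52% at Dnmt3l. Without the classes 2CG and 2CH, sites per bin were 16.9, 11.6 and 8.07 at Dnmt1, Dnmt3a and Dnmt3b, reads per bin 258, 174, 106 and 188, and both-strand shares 42.6%, 45.6%, 39.3% and 47.5%, against 34.6% on the autosomes. In these 3 alternatives the interval of Dnmt3b included the autosomal both-strand share. With the outer 5 kb left out, Dnmt3b had 10.4 sites per bin, and reads per bin were 336, 202, 151 and 206 (206.25). Without the top 0.1% of sites, those above 168 reads, Dnmt1 had 310.1 and Dnmt3b 129 reads per bin. With windows within 60 and 150 kb the Dnmt3b start was placed elsewhere, leaving 0 and 1 Dnmt3b windows without a listed cytosine, while the other genes' placings at 60 to 500 kb were as reported. With at least 8 or 15 CG, 63.6% and 70.8% of other genes' windows held none. In bins of 500 bp, 6.2% were empty at Dnmt3a and 14.4% at Dnmt3b. A higher minimum leaves fewer sites, and shorter bins hold fewer, by construction. For the other moved values the cause was not tested. No paired analysis was possible because the table pools both libraries in 1 column, and for the same reason no replicate could be left out.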

Other observations

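The sites with the most reads at 3 of the 4 loci had a partner on the other strand about 22 bp away with an equal or nearly equal count. At Dnmt1 the highest site was the plus-strand CG cytosine at chr9:20722522 with 275 reads, of the class 2CG, and 22 bp on, the minus-strand cytosine at 20722544 had 275 as well. The other strands of these 2 CG had 26 and 5 reads, so their dyads, with 301 and 280 reads, were also the highest of the locus. At Dnmt3b the highest site, the minus-strand cytosine at chr2:153487233, had 173 reads, and the plus-strand cytosine 22 bp before it, at 153487211, had 171. Their dyads had 190 and 171 reads. At Dnmt3l the highest site, on the minus strand at chr10:77536697, had 93 reads, and a plus-strand cytosine 21 bp before it had 87. The highest site and the highest dyads of Dnmt3l, with 110 and 103 reads, lay in the last bin of the interval, downstream of the start of Icosl. At Dnmt3a the highest site, at chr12:3858097 on the plus strand with 145 reads, had no listed partner at 21 to 25 bp, and the minus strand of its CG was not listed. The second dyad of Dnmt3a, at 3833750, had 40 and 95 reads. The search for partners was added after seeing the data, and the origin of such pairs was not tested. Of the autosomal sites, 0.0254% had as many reads as the highest of Dnmt1 and 0.392% as many as that of Dnmt3l.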
